A study of Mus musculus with 2 samples.

Results

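The long noncoding RNAs (lncRNAs) described here are 5 in number: 2610035D17Rik, Mir143hg (now Carmn), Gm12610, Gm14005 (now Morrbid) and 2610203C20Rik (now Mir100hg). They are 5 of the 3134 genes in the count table, and 5 of the 30 that RefSeq classes as lncRNAs. They were taken by symbol and had been chosen by their class and their HP1 alpha over input ratios, so those ratios are a description and support nothing by themselves. The assay was eCLIP (enhanced crosslinking and immunoprecipitation): ultraviolet light fixes a protein to RNA in contact with it, the protein is pulled down, and its RNA is sequenced. The cells are labelled NIH3T3, an established mouse fibroblast line, grown without further treatment. The first group is a single HP1 alpha pull-down library, and the other, the input, is a single library labelled as having no antibody. With 1 library per group, no difference has a replicate check.

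HP1 alpha is a protein of heterochromatin that binds methylated histone H3 through its chromodomain, and its hinge region also binds RNA. A lncRNA that hosts microRNAs is their primary transcript: the nuclear enzyme Drosha, with Dgcr8, cuts the microRNA hairpins out of it, and Dicer1 trims them to the mature form. Other lncRNAs stay near their own gene and act on neighbours in cis. Carmn is known from the smooth muscle lineage, and Morrbid as a myeloid lncRNA that represses the neighbouring pro-apoptotic gene Bcl2l11.

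The label of microRNA hosts holds for 2 of the 5 by position in GRCm38.p6. The gene 2610203C20Rik, on the plus strand of chromosome 9 from 41376526 to 41615185, contains Mir100, Mirlet7a-2 and Mir125b-1. Mir143hg contains Mir145a and Mir143, and its position is given with its values. No microRNA gene of the RefSeq table lies within 2610035D17Rik (chromosome 11, 113043906 to 113201838, minus strand), Gm12610 (chromosome 4, 89295180 to 89518621, plus strand) or Gm14005 (chromosome 2, 128298663 to 128429351, minus strand). Gm12610 is not wholly intergenic, since its span holds the protein-coding gene Cdkn2b. RefSeq gives ANRIL, the name of the human antisense lncRNA of that locus, as its synonym.

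The microRNAs of 2610203C20Rik are shown because the host carries 3 microRNA families at the same locus. Among listed genes, Spaca6 also holds 3 microRNA genes, Mir99b, Mirlet7e and Mir125a, whose 5p seeds are those of the same 3 families. Mature sequences are from RefSeq (GRCm38.p6), written 5′ to 3′ with the seed, bases 2 to 8, in capitals.
mmu-miR-100-5p: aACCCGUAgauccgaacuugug
mmu-let-7a-5p: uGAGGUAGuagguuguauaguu
mmu-miR-125b-5p: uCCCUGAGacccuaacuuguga
mmu-miR-100-3p: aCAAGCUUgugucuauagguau
mmu-let-7a-2-3p: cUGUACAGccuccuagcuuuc
mmu-miR-125b-1-3p: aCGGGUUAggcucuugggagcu
The let-7a-5p sequence is listed under another let-7a gene, and it occurs unbroken in the Mirlet7a-2 hairpin. The seed of miR-100-5p is shared with 2 other mature microRNAs of the table (miR-99a-5p and miR-99b-5p), that of let-7a-5p with 10, and that of miR-125b-5p with 4, among them miR-125a-5p. The 3p seeds are shared with 0 others. All 3 hairpins lie in the 3′ part of the host span, starting 154.9, 160.19 and 205.4 kb from its start. The mature sequences of the Mir143hg microRNAs are not shown. Mature microRNAs were not measured here, and the counts below are for the host genes.

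The promoters of the genes with the highest and the lowest ratio, and of Gm12610, which starts 561 bases from the start of Cdkn2a, are shown because their letters differ. Each is 250 bases before to 50 after the first base, from RefSeq (GRCm38.p6), 5′ to 3′ on the gene's strand. Capitals mark the TATA box letters TATAAA, the CAAT box letters CCAAT and the GC box letters GGGCGG on either strand, and no matches overlap.
2610035D17Rik, chr11:113201789-113202088, minus strand: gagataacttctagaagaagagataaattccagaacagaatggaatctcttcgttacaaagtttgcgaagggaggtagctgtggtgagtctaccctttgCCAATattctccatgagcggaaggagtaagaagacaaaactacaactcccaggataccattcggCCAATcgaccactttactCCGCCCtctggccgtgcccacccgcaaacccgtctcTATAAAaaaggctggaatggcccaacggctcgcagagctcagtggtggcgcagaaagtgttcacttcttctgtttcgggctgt
Gm12610, chr4:89294930-89295229, plus strand: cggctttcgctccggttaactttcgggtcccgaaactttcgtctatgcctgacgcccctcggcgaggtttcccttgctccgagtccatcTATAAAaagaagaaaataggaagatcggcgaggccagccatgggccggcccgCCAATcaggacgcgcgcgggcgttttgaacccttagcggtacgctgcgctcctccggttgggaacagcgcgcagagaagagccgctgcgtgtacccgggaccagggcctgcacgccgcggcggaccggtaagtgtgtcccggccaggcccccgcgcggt
2610203C20Rik, chr9:41376276-41376575, plus strand: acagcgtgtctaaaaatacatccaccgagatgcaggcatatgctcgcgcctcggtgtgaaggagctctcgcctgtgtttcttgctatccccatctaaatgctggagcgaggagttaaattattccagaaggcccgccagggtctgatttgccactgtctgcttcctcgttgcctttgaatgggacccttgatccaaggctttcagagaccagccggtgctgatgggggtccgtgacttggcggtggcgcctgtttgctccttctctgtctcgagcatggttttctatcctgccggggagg
The 2610035D17Rik promoter holds TATAAA at -33 to -28, CCAAT at -151 to -147 and at -87 to -83, and GGGCGG on the opposite strand at -69 to -64. The Gm12610 promoter holds TATAAA at -161 to -156 and CCAAT at -109 to -105, and it has 37 CpG dinucleotides, more than 94.4% of promoters. The first 2610203C20Rik promoter holds none of these letters, and neither does that of Gm14005. Another 2610203C20Rik promoter, not shown, holds CCAAT on the opposite strand at 28 to 32. Of the 32851 RefSeq promoters of this length, 13.6% hold the TATA box letters, 37.4% the CAAT box letters and 35.7% the GC box letters on either strand. These matches describe the DNA, and the assay did not read promoters.

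Only genes with at least 100 counts in one library or the other are listed, and the listed counts sum to 513965 (HP1 alpha) and 830031 (input). Counts were divided by these totals, which are not sequencing depths, and are given as CPM, that is, scaled to 1000000 listed counts. Each member has at least 100 counts in both libraries, so its ratio was not fixed by that limit. Of the 3134 listed genes, 1433 had under 100 HP1 alpha counts, which capped their ratios. Under 100 input counts were found for 16, whose ratios had a floor. All comparisons with the listed genes below carry this limit. Fibroblast genes were present, with 7 of 12 markers listed, led by Fn1 and Col1a1, while Pdgfra, Thy1, Dcn, Lum and Fap were not listed. None (0) of the 6 immune, 4 endothelial and 4 epithelial markers was listed. The column headers read MEF where the labels read NIH3T3, and mock where they read input. NIH3T3 is commonly described as having lost the Cdkn2a locus by deletion, yet Cdkn2a had 255 HP1 alpha counts and 392 input counts. Whether the cells were NIH3T3 or other mouse fibroblasts cannot be told apart here.

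Of the 5 lncRNAs, 4 took a larger share of the HP1 alpha library than of the input, and 2610203C20Rik took a smaller one. Every interval below is an exact 95% interval that covers counting error only, for reads that may include PCR copies. The gene 2610035D17Rik had 332 HP1 alpha counts and 171 input counts. That is 646 CPM (578 to 719) against 206 CPM (176 to 239), a ratio of 3.14 (2.6 to 3.79). Its HP1 alpha interval lies far above its input interval, and its ratio ranked 3 among all 3134 genes. It is the only member that passed the rule for higher (over 2-fold with an interval above 1), which 2.36% of all listed genes passed; 0 members passed the rule for lower, against 0.83% of all genes.

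Mir143hg, the host of miR-143 and miR-145, lies on chromosome 18 from 61645878 to 61665538. It had 241 and 204 counts, which is 469 CPM (412 to 532) in HP1 alpha and 246 CPM (213 to 282) in the input. Its ratio was 1.91 (1.58 to 2.31). Gm12610, the lncRNA of the Cdkn2b locus, had 159 and 135 counts. This is 309 CPM (263 to 361) against 163 CPM (136 to 193), a ratio of 1.90 (1.5 to 2.41). Gm14005 had 231 counts against 219, or 449 CPM (393 to 511) against 264 CPM (230 to 301). Its ratio was 1.70 (1.41 to 2.06). For each of these 3 genes the level intervals did not overlap between the libraries, as a description of genes chosen by their ratios. The share of all genes without such overlap was not computed. An interval of the ratio above 1, a related measure, was found for 15.4% of listed genes. Each of the 3 intervals of the ratio holds 2.

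The gene 2610203C20Rik went the other way. It had 181 HP1 alpha counts against 370, or 352 CPM (303 to 407) against 446 CPM (401 to 494). The ratio was 0.790 (0.658 to 0.946). The level intervals overlap slightly, and the interval of the ratio ends just under 1. In all, 4 members had an interval above 1, as had 15.4% of listed genes, and 1 had an interval below 1, as had 32.6%. Because the members were chosen with these values known, nothing is read from these shares.

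**Figure D1:**
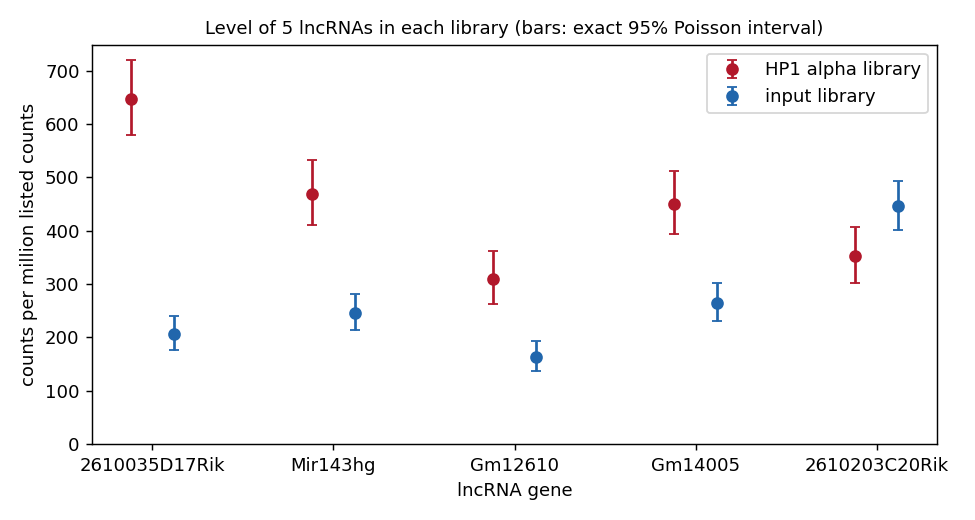
Level of each lncRNA (x axis) in CPM (y axis) in the HP1 alpha and the input library; points are the single library values and bars exact 95% Poisson intervals. The HP1 alpha value lies above the input for 4 genes, from 646 against 206 for 2610035D17Rik, and below it for 2610203C20Rik, at 352 against 446.

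Per kilobase of gene span, introns included, Mir143hg was denser than the other members. Its level was 12.3 counts per kb in HP1 alpha and 10.4 in the input, over a span of 19.7 kb. The others spanned 131 to 239 kb and had 0.712 to 2.10 counts per kb in HP1 alpha and 0.604 to 1.68 in the input. The median of all genes with a known span was 2.33 in HP1 alpha and 4.28 in the input. That of the 30 lncRNAs, whose median span of 20.2 kb is like that of Mir143hg, was 6.09 and 8.86. Whether reads were counted over introns is not given in the sources used here, so these densities hold only for counting over whole spans.

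Ratios between members need no scaling, since both libraries' totals cancel. Of the 10 pairs, 7 had an interval that excluded 1. The members were chosen with these ratios known, and the same share over other pairs of genes was not computed. The pair values are thus a description. The ratio of 2610035D17Rik was 1.64 times that of Mir143hg (1.25 to 2.16), 1.65 times that of Gm12610 (1.21 to 2.24) and 1.84 times that of Gm14005 (1.41 to 2.41). It was 3.97 times that of 2610203C20Rik (3.05 to 5.17). Mir143hg, Gm12610 and Gm14005 could not be ordered: Mir143hg over Gm12610 was 1.00 (0.738 to 1.36), Mir143hg over Gm14005 was 1.12 (0.854 to 1.47) and Gm12610 over Gm14005 was 1.12 (0.823 to 1.52). The 2 microRNA hosts differed by 2.41-fold (1.85 to 3.15), with Mir143hg the higher.

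Other scalings moved all genes together. TMM and DESeq2 size factors raised every log2 ratio by 0.20 and 0.21, against a median of -0.21 over all genes. Under TMM the ratio was 3.60 for 2610035D17Rik, 2.19 for Mir143hg and 2.18 for Gm12610, so 3 members passed the rule for higher, which 4.05% of all genes passed there (127, against 74 before). The same 3 passed with DESeq2 factors, as did 4.21% of all genes, and at 1.5-fold with the listed totals 4 members passed, as did 7.63% of all genes. Under TMM, Gm14005 stayed short of 2-fold at 1.95. The ratio of 2610203C20Rik became 0.906 (0.754 to 1.08) under TMM and 0.913 (0.760 to 1.09) under DESeq2 scaling, with intervals that hold 1. The authors' deposited table gives folds of 3.23 for 2610035D17Rik, 1.96 for Mir143hg, 1.96 for Gm12610, 1.75 for Gm14005 and 0.813 for 2610203C20Rik.

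Longer genes had larger ratios in this table, so each member was also set against the 200 listed genes of most similar span. The median ratio of those genes was 0.781 for Mir143hg, 1.05 for Gm14005, 1.16 for 2610035D17Rik, 1.30 for Gm12610 and 1.32 for 2610203C20Rik. Relative to these medians, 2610035D17Rik stood at 2.70 (2.24 to 3.26) and Mir143hg at 2.44 (2.02 to 2.96). None (0) of the 200 had a higher ratio in either case. Gm14005 stood at 1.62 (1.34 to 1.96), with 12 of its 200 higher, and Gm12610 at 1.46 (1.15 to 1.85), with 22 higher. The gene 2610203C20Rik stood at 0.599 (0.498 to 0.717), with 197 of its 200 higher. Among genes of like span, Mir143hg and 2610035D17Rik thus passed the rule for higher, as did 1.23% of genes with a known span, and 2610203C20Rik lay further below 1. Genes whose ratios the listing limit capped were not left out of the 200, and the members were chosen by their ratios. These ranks are therefore a description.

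**Figure D2:**
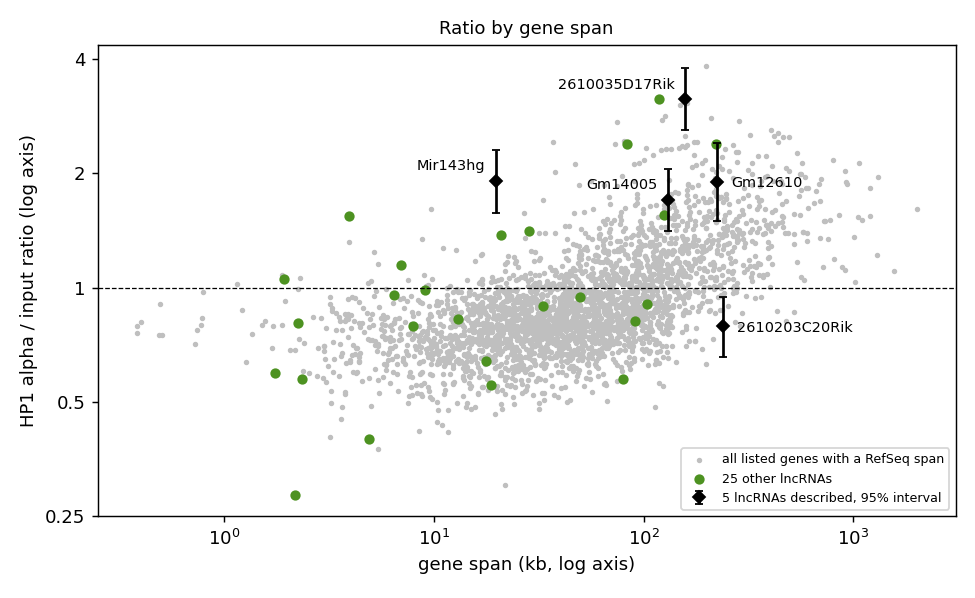
HP1 alpha over input ratio (y axis, log) against gene span in kb (x axis, log) for every listed gene with a RefSeq span, the 25 other lncRNAs and the 5 described, with 95% counting intervals. Mir143hg, at 1.91, lies above all genes of similar span, and 2610203C20Rik, at 0.790, lies below most of those like it in span.

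**Figure D3:**
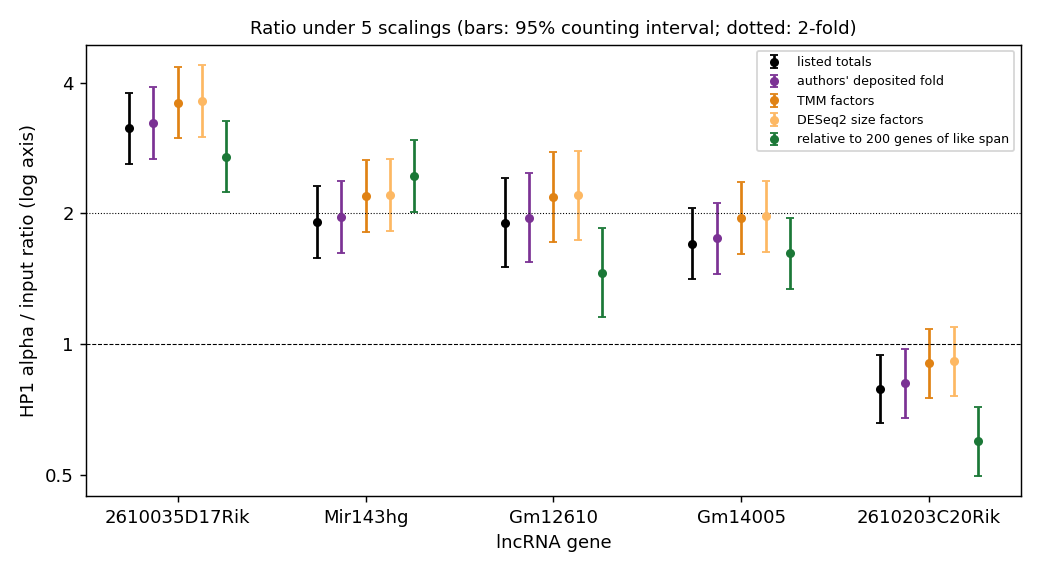
HP1 alpha over input ratio (y axis, log) of each lncRNA (x axis) under 5 scalings, with 95% counting intervals; the dashed line is a ratio of 1 and the dotted line 2-fold. The gene 2610035D17Rik lies above 2-fold under each scaling drawn, Mir143hg runs from 1.91 to 2.44, and 2610203C20Rik lies below 1 under each.

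The genes around the members were then compared, to show the values at each locus. The rule for higher was passed by 2.36% of all listed genes and that for lower by 0.83%. Within 1 Mb of the members, 16 listed genes were found, of which 1 passed the rule for higher and 0 for lower. Their values are given as a description, since the members were chosen by their ratios. Tcof1, Slc20a1, Tbcel, Focad, Ckap2l and Klhl9 had under 100 HP1 alpha counts, so the listing limit capped their ratios at values from 0.824 (Slc20a1) to 1.60 (Klhl9).

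Slc39a11, a zinc transporter gene, lies 43.0 kb from 2610035D17Rik on the same strand, with its 3′ end facing the start of the lncRNA. It had 134 HP1 alpha and 83 input counts, a ratio of 2.61 (1.97 to 3.47). With under 100 input counts, Slc39a11 entered the table by its HP1 alpha count alone, and with 83 input counts its ratio could not be below 1.95. Most of its height was thus fixed by the limit, and nothing is read from its nearness to the ratio of 2610035D17Rik. Its span of 405 kb is long. It stood at 1.83 times the median of genes of like span, under the same limit. On the other side of 2610035D17Rik lies Sox9, a transcription factor gene of cartilage, 256 kb away, which was not listed.

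Around Mir143hg all 4 neighbours had lower ratios. The nearest was Csnk1a1, the gene of casein kinase 1 alpha, 55.6 kb away. It had 137 HP1 alpha and 375 input counts, a ratio of 0.590 (0.482 to 0.719), so the ratio of Mir143hg was 3.23 times as large (2.45 to 4.28). Pdgfrb, a growth factor receptor gene of mesenchymal cells, had 0.836, the nucleolar factor gene Tcof1 had 0.681 and the actin-associated gene Synpo had 1.19. Synpo was nearest in ratio, and Mir143hg still exceeded it 1.60-fold (1.26 to 2.05).

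Gm12610 starts 561 bases from the start of Cdkn2a, a tumour suppressor gene read on the other strand. Cdkn2a had a ratio of 1.05 (0.894 to 1.23), and that of Gm12610 was 1.81 times as large (1.36 to 2.42). Mtap, a gene of methionine salvage, had 1.18, Klhl9 had 0.94 and Focad had 1.18. Gm12610 exceeded each of the 4. Cdkn2b, which covers 2.12% of the Gm12610 span, was not listed. Since Cdkn2a and Gm12610 share this locus, the doubt about the cell source given above applies to both.

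Bcl2l11 lies 136 kb from Gm14005 and had 111 HP1 alpha and 161 input counts, a ratio of 1.11 (0.866 to 1.43). Gm14005 exceeded it 1.53-fold (1.12 to 2.10). On the other side Anapc1, a subunit gene of the anaphase-promoting complex, had 0.890, the phosphate transporter gene Slc20a1 had 0.742 and the mitotic spindle gene Ckap2l had 0.678. Gm14005 exceeded these 3 by 1.91 to 2.51-fold.

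The 3 listed neighbours of 2610203C20Rik all had ratios above its own. They were Hspa8, a constitutive heat shock chaperone gene, with 1.32 (1.04 to 1.66), the cell adhesion gene Clmp with 1.18 (0.954 to 1.46) and Tbcel with 1.28 (0.946 to 1.73). The ratio of 2610203C20Rik was 0.600 (0.446 to 0.808) of that of Hspa8 and 0.669 (0.505 to 0.888) of that of Clmp. All 3 lie more than 0.5 Mb away.

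**Figure D4:**
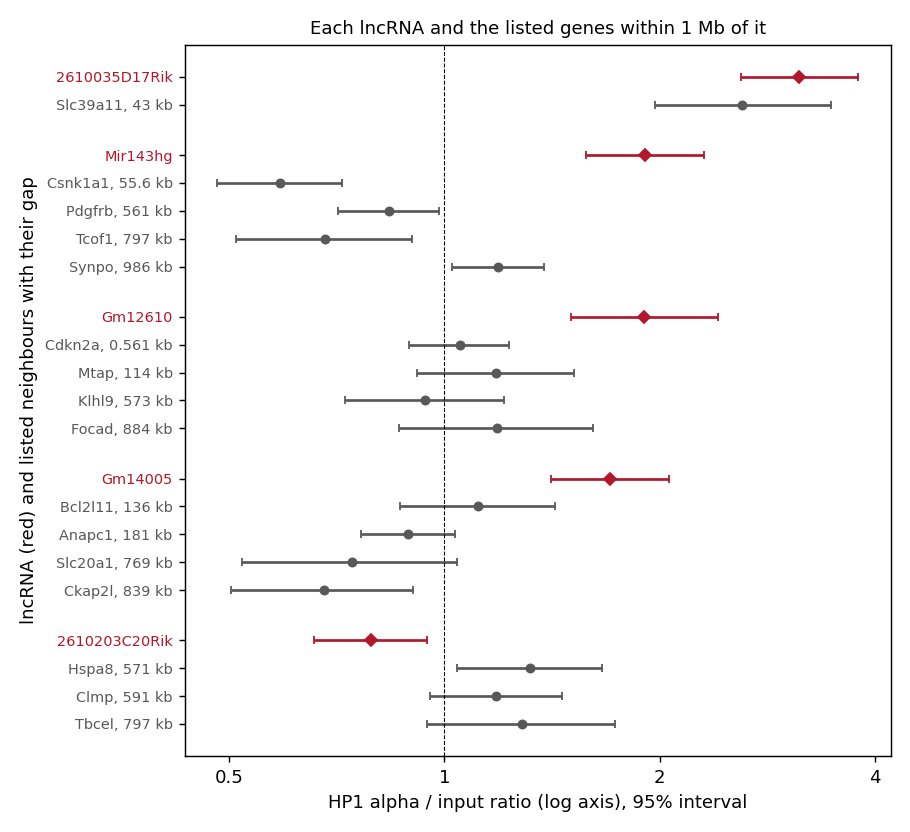
HP1 alpha over input ratio (x axis, log) with 95% counting intervals for each lncRNA (red) and the listed genes within 1 Mb of it (grey), ordered by the gap between gene spans in kb. Slc39a11 lies at 2.61, of which the listing limit fixed at least 1.95, and the 3 neighbours of 2610203C20Rik lie above it, at 1.18 to 1.32.

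Other genes annotated within the members' spans could share reads with them. For 2610035D17Rik the lncRNA model LOC115487747 covers 34.4% of the span. Bvht, a lncRNA next to Carmn, covers 8.18% of Mir143hg, and Gm51670 covers 3.64% of 2610203C20Rik. Gm14010 covers 1.44% of Gm14005. None of these genes was listed, and their part in the counts was not tested.

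Smooth muscle genes were looked at because Carmn belongs to that lineage. Of 15 fixed genes 5 were listed, with 0 higher, 0 lower and a median log2 ratio of -0.32, against -0.21 for all listed genes. For 4 of these 5, all but Tpm1, the HP1 alpha count was under 100, so the listing limit capped the ratio, at 1.11 for Smtn and up to 1.57 for Mylk. Tpm1, a tropomyosin gene, with 479 counts against 1021, had 0.758 (0.678 to 0.845), and the myosin light chain kinase gene Mylk had 1.20 (0.910 to 1.57). Tpm2 had 0.774 and Myl9 had 0.797. The defining genes Acta2, Tagln, Myh11, Cnn1 and Myocd were not listed. An unlisted gene may still have had counts below 100 in each library. For its level, fewer cells of a type and less RNA per cell cannot be told apart in bulk samples.

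The ratios of lncRNAs that host microRNAs are given as a description, since the members were chosen by theirs. The others that contain a microRNA gene, named after their values were seen, were Dnm3os with 0.793 (0.562 to 1.11), Dleu2, the host of miR-15a and miR-16-1, with 0.573 (0.406 to 0.796), Snhg4 with 0.399 and 2810008D09Rik with 0.284. These 4 had under 100 HP1 alpha counts and were listed through their input counts, which capped their ratios at 0.872, 0.807, 0.694 and 0.355, so values below 1 were fixed for them. Relative to genes of like span Dnm3os stood at 1.10, Dleu2 at 0.636, Snhg4 at 0.548 and 2810008D09Rik at 0.387. Among all listed genes 2.36% were higher and 0.83% lower. Entries for protein-coding genes that contain a microRNA on their own strand numbered 162, with 2 higher, 2 lower and a median log2 ratio of -0.17, against -0.21 for all listed genes. The most abundant were Rnf213 with a ratio of 1.30, Foxp1 with 1.39, Hspg2 with 0.738 and Ptprs with 0.731. The 53 ratios above 1 of 162 compare with 30.9% of all listed genes. Nav1 has 2 entries among the 162. One, with 131 and 104 counts, had a ratio of 2.03 and was called higher. The other, with 198 and 244 counts, had 1.31 and was not called.

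The messenger RNAs of the microRNA pathway ran from 0.682 to 1.40. Of 24 names on the list 9 were listed, with 0 higher, 0 lower and a median log2 ratio of 0.011. Over all listed genes the median was -0.21, with 2.36% higher and 0.83% lower. Drosha, which cuts primary transcripts such as 2610203C20Rik, with 171 and 255 counts, had 1.08 (0.887 to 1.32), and its partner Dgcr8 had 0.999 (0.782 to 1.27). Ago2, the effector that carries mature microRNAs, had 1.10 (0.95 to 1.27), and Tnrc6c, a scaffold of silencing, had 1.08 (0.918 to 1.27). For comparison, 15.4% of all listed genes had an interval above 1 and 32.6% had one below it. Intervals excluded 1 for 3 of the 9. They were below it for Ddx5, a helicase of the Drosha complex, with 0.767 (0.644 to 0.910), and for Zcchc11 (now Tut4), a uridylyltransferase gene, with 0.682 (0.543 to 0.852). The interval was above 1 for the exonuclease gene Dis3l2, with 1.40 (1.06 to 1.85). Its HP1 alpha count was 98, so the listing limit capped this ratio.

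Among the 30 lncRNAs the members held 1144 of 9041 counts in HP1 alpha, or 12.7% (12 to 13.4, exact binomial), and 1099 of 11520 in the input, or 9.54% (9.01 to 10.1). These shares follow from the choice of the members and are a description. Summed over the 5, the ratio was 1.68, and it was 1.41 without 2610035D17Rik and 2.13 without 2610203C20Rik. All listed genes had a median log2 ratio of -0.21, with 2.36% higher, 0.83% lower and 30.9% of ratios above 1. The other lncRNAs had a median log2 ratio of -0.14, with 3 higher, 2 lower and 9 of 25 ratios above 1. Many of them, such as Snhg3 with 95 and 1810026B05Rik with 39, had under 100 HP1 alpha counts. The listing limit capped their ratios, while Kcnq1ot1, with 98 input counts, had a floor set by it. For those with at least 400 counts in both libraries together, the median log2 ratio was 0.33 (6 genes). The 25 ran from 2810008D09Rik at 0.284 and Snhg4 at 0.399, both snoRNA hosts, to Pvt1 at 2.40 and Airn, an imprinted antisense lncRNA, at 3.14 (2.79 to 3.54). The value of 2610035D17Rik was as large as that of Airn within counting error.

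**Figure D5:**
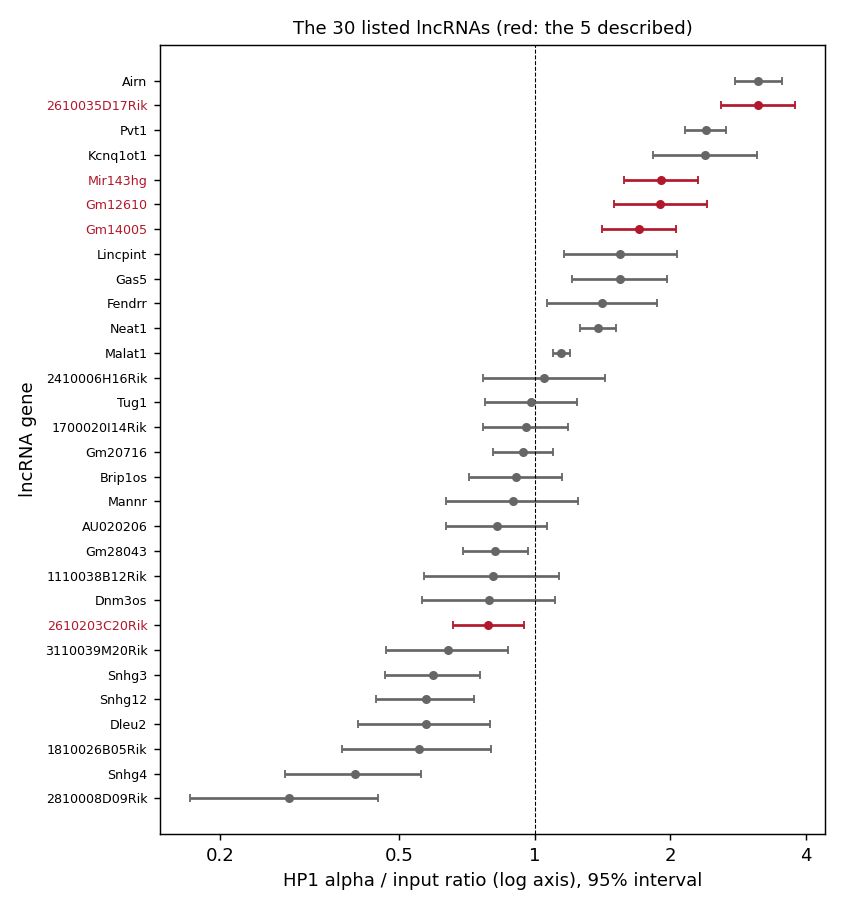
HP1 alpha over input ratio (x axis, log) with 95% counting intervals for the 30 listed lncRNAs (y axis, ordered by ratio), with the 5 described in red. Of the 5, 4 lie among the upper values, from 1.70 to 3.14, and 2610203C20Rik lies among the lower ones at 0.790. The listing limit capped the ratios of the lncRNAs with under 100 HP1 alpha counts, none of them a member.

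The genes most like each member were found by the distance between their log2 CPM in the 2 libraries. With only 2 values per gene this likeness says that count pairs were close. For 2610035D17Rik they were Apex2, a base excision repair gene, with 327 and 172 counts, and Snx29 with 294 and 186. Mir143hg was nearest to Kirrel3 (251 and 203) and Nckap5 (254 and 216). Gm12610 was nearest to the cilium gene Bbs9 (161 and 136) and to Gm16039 (159 and 139). Gm14005 was nearest to Atxn7l1 (235 and 220) and Spata5 (232 and 223), and 2610203C20Rik to Pdcd6ip (181 and 365) and Kansl1 (183 and 375). All of these are protein-coding genes.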

How the data were processed

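The eCLIP libraries compared were 1 with an HP1 alpha antibody and 1 labelled as no antibody. The authors deposited read counts per gene and a fold ratio of both. That ratio is 1.66 times the quotient of the counts throughout, a constant for total mapped reads per the file headers. STAR 2.6.0c, featureCounts and GRCm38 are named per the submitters' processing notes, without settings. The sources used here do not give strand, intron counting or duplicate removal. Other sample columns numbered 0.

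Symbols were matched to RefSeq GRCm38.p6, 2969 by symbol and 120 by synonym, with 45 unmatched. A ratio is the quotient of the counts over their listed totals, with an exact Clopper-Pearson 95% interval (scipy 1.17.1) from the split of both counts, or for pairs of genes an exact conditional odds ratio interval. Log2 ratios used a pseudocount of 0.5. A gene was called higher or lower past 2-fold with an interval excluding 1, a rule tested on simulated data. Every 95% interval covers counting error only, and no p-value was computed. Intervals of a level in CPM are exact Poisson intervals.

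The members and lists were chosen with earlier results of these data known. Named genes are the 5 members, up to 5 nearest listed genes within 1 Mb of each, the 2 nearest in level, up to 4 most abundant genes of each list and the 2 highest and 2 lowest other lncRNAs. A strand was needed for hosts, and the alternative took either strand. Other alternatives were TMM factors (edgeR 4.0.16), DESeq2 1.42.0 size factors, the authors' fold, a minimum of 400 counts, a pseudocount of 5, genes of like span, 1.5-fold calls and a 0.5 Mb window.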

Additional observations from a re-analysis of the deposited data

How the results depend on the processing

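No paired analysis was possible because only 1 library stands in each group, and for the same reason no replicate could be left out. With TMM factors, DESeq2 factors, the authors' fold, a minimum of 400 counts and a pseudocount of 5, each member's ratio stayed within its counting interval. Gm12610, with fewer than 400 counts, has no value at that minimum. Relative to genes of like span the ratio was 2.44 for Mir143hg, 0.599 for 2610203C20Rik and 1.46 for Gm12610, beyond their intervals, while 2610035D17Rik and Gm14005 stayed within theirs. The number of members called higher, 1 as reported, was 3 with TMM, 3 with DESeq2 factors, 2 against genes of similar span and 4 at 1.5-fold. Over all 3134 genes the same counts were 74 as reported, 127, 132, 38 (of 3089 with a known span) and 239. Of the members, 0 were called lower under any of these. The median log2 ratio of protein-coding microRNA hosts, -0.17 as reported, was 0.024 with TMM, 0.036 with DESeq2 factors, -0.13 with the authors' fold, -0.15 with a pseudocount of 5, and -0.038 both for genes of at least 400 counts and against genes of similar span. That of the microRNA pathway, 0.011, was 0.21 with TMM and 0.22 with DESeq2 factors. That of the other lncRNAs, -0.14, was 0.061, 0.073, 0.33 at a minimum of 400 counts (6 genes left) and 0.18 relative to genes of like span. TMM factors, DESeq2 factors and the authors' fold each add a constant to every log2 ratio, and the minimum of 400 counts tests fewer genes. The cause of the other shifts was not tested. Within 0.5 Mb 6 neighbours were left of 16. Counts between 135 and 370 per member leave ratio intervals whose upper end is 1.44 to 1.60 times the lower, and at this depth Mir143hg, Gm12610 and Gm14005 could not be ordered.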
